A study of Mus musculus with 51 samples.

Results

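The effect of a larger fungal inoculum was described in alveolar macrophages that lack gp91phox. All gp91phox-/- arrays titled with conidia entered, namely e6 and e7 at 2 h and e6 and e7 at 4 h, with 3 arrays in each group. These are 12 of the 51 arrays of the series, and the doses e6 and e7 differ by a factor of 10. RNA came from alveolar macrophages of mouse lungs after Aspergillus fumigatus conidia had been instilled in vivo. Mock-treated gp91phox-/- arrays (6, with 3 per time) serve as the baseline, and 16 arrays of C57Bl/6 mice (WT), 4 for each dose and time, give the dose effect in the other genotype. The gp91phox deficiency is shared by both doses and by the mock group, so each dose difference is taken within this genotype. Whether it differs from that of WT is a separate comparison. The labels call the arrays of a group biological replicates. The number of mice per array and their age are not given in the sources used here, so p-values measure the spread between arrays as labelled. The study asked whether macrophages of a normal and an immune-compromised host respond differently to the mould, and the dose comparison asks how the response of the deficient cells depends on the inoculum.

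Alveolar macrophages are the resident phagocytes of the airspaces and the first leukocytes to meet inhaled conidia, the dormant spores of the mould. They engulf spores, acidify the phagosome, and release chemokines that draw neutrophils into the lung. gp91phox, encoded by Cybb, sits in the phagosome membrane as the catalytic part of the NADPH oxidase, the enzyme that makes superoxide. Its loss causes chronic granulomatous disease, in which invasive aspergillosis is a known complication. Swelling conidia expose cell wall polysaccharides that are recognised by Dectin-1 and Toll-like receptors, and these receptors signal through NF-kB and MAP kinases to cytokine genes.

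Cybb had a log2 signal of 6.77 to 9.06 on the gp91phox-/- arrays and of 10.59 to 12.12 on the WT arrays, and the genotypes did not overlap. Where in the gene the probe set lies was not given in the sources used here. All 17 measured alveolar macrophage markers had a mean signal of at least 100 over the 12 conidia arrays. In contrast, 14 of 17 T and NK cell markers, 11 of 17 endothelial and stromal markers, 9 of 15 neutrophil markers, 7 of 9 B cell markers and 6 of 7 erythroid markers had a mean under 50. The same held for 5 of 12 monocyte and dendritic cell markers and 7 of 19 lung epithelial markers. In RNA of a whole population, fewer cells of a type and less RNA per cell cannot be told apart.

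Measures of the whole array differed between the doses, without a direction shared by both times. At 2 h, the share of probe sets with a signal under 50 was 42.9%, 41.6% and 41.4% on the e6 arrays and 34.9%, 37.3% and 32.7% on the e7 arrays. At 4 h it was 32.6%, 33.1% and 32.8% with e6 and 37.7%, 41.3% and 40.9% with e7. The e6 and e7 groups did not overlap at either time and the order of the doses turned between the times (two-sided exact permutation p = 0.1 at each time, the smallest that 3 arrays against 3 allow). Mock arrays had 43.2%, 42% and 42.9% at 2 h and 37.4%, 40.1% and 35.8% at 4 h. They overlapped e6 and not e7 at 2 h, and e7 and not e6 at 4 h. The 3'/5' signal ratio of the control genes, a measure of how complete the labelled transcripts were, was 2.86, 1.83 and 3.99 on the log2 scale with e6 at 4 h and 1.18, 0.93 and 0.94 with e7 (two-sided exact permutation p = 0.1). At 2 h it was 1.18, 1.19 and 2.77 with e6 and 1.45, 1.85 and 3 with e7, and the groups overlapped (two-sided exact permutation p = 0.5). The part of these measures in the gene results was not tested. Many genes at low signal are marked, and for some of them the difference is also given after raising every signal below 50 to 50.

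**Figure D1:**
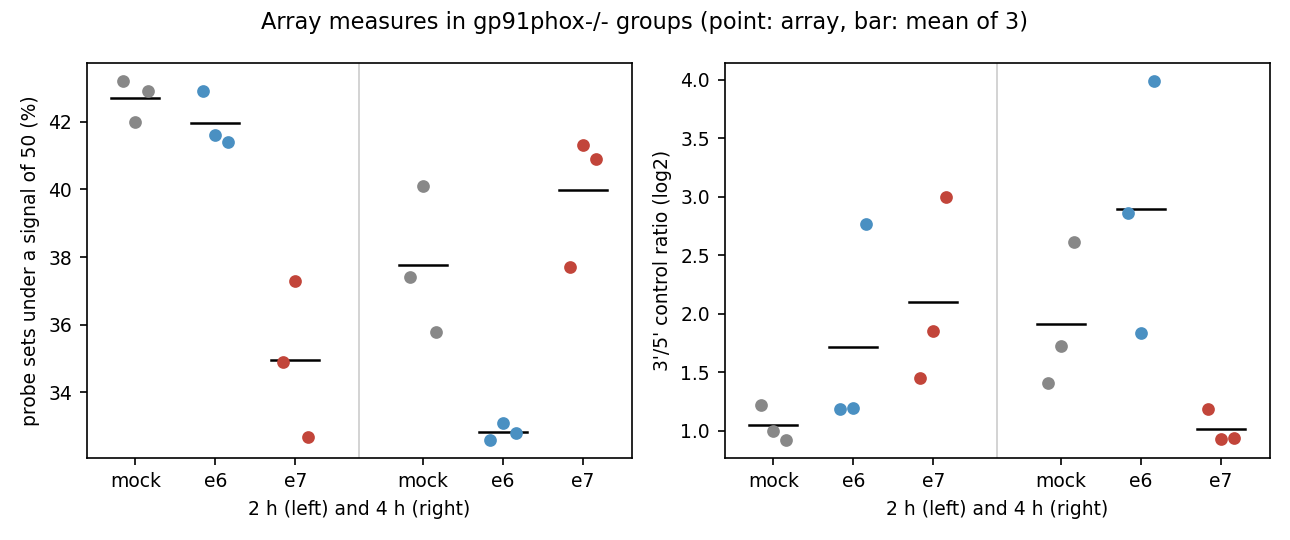
Share of probe sets under a signal of 50 (percent) and 3'/5' control ratio (log2) for each gp91phox-/- array by time and treatment; points are arrays and bars are means of 3. The share was lower with e7 than with e6 at 2 h (32.7% to 37.3% against 41.4% to 42.9%) and higher at 4 h (37.7% to 41.3% against 32.6% to 33.1%).

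Averaged over both times, the larger dose went with higher transcripts of the neutrophil chemokine Cxcl1, of the cytokines Tnf and Il1a, and of the signalling and regulatory genes Nrip1, Pik3ap1 and Pik3cg. Ctsb, Npc2 and Fabp5, 3 single genes at very high signal, were lower by small amounts, and their calls were lost after quantile normalization (adjusted p = 0.456, 0.349 and 0.503). Of 12393 genes, 78 rose (0.629%) and 104 fell (0.839%), 1.47% in all, at an adjusted p under 0.05 by limma with Benjamini-Hochberg adjustment over all probe sets. By probe set, 151 rose and 173 fell of 22626 (1.43%). The count of called probe sets was 1 in a fit on the 12 conidia arrays alone. It was 43 without e6 array 3 at 2 h, 70 and 143 without e7 arrays 1 and 2 at 2 h, 100 and 208 without e6 arrays 1 and 2 at 4 h, and 128, 190 and 110 without e7 arrays 1, 2 and 3 at 4 h. Separation of the 3 e7 arrays from the 3 e6 arrays was common among all genes. All e7 arrays were above all e6 arrays for 2631 genes at 2 h (21.2%) and 1287 at 4 h (10.4%), and below them for 1274 (10.3%) and 2259 (18.2%). At both times they were above for 263 genes (2.12%) and below for 226 (1.82%).

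The regions upstream of Cxcl1, Cxcl2 and Il1a are shown because every e7 array exceeded every e6 array for these mediators at both times and because each holds a searched motif, in capitals. They are the 250 bases before the RefSeq start site on GRCm38.p6, 5′ to 3′ on the gene's strand: chr5:90890995-90891244 (plus strand) for Cxcl1, chr5:90903649-90903898 (plus strand) for Cxcl2 and chr2:129309973-129310222 (minus strand) for Il1a.
Cxcl1: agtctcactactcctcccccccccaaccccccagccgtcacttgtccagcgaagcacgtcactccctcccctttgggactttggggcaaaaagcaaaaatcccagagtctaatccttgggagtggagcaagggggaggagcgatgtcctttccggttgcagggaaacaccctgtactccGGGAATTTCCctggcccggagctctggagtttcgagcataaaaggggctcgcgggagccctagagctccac
Cxcl2: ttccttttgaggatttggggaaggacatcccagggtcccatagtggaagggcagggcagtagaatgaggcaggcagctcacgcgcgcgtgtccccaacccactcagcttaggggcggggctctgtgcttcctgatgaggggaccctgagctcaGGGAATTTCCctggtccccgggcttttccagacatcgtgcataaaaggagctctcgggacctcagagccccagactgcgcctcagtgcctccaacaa
Il1a: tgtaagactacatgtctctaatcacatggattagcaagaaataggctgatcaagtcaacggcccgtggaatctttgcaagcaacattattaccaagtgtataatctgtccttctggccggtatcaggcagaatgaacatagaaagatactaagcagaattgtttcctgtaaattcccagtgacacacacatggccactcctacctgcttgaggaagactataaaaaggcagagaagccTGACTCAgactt
The capitals mark an NF-kB motif in Cxcl1, starting at -71 from the start site, and in Cxcl2, at -97. In Il1a they mark an AP-1 motif (TGANTCA) at -12. The NF-kB motif was searched with 1 base left free. On either strand, the NF-kB letters occur in 135 of 32851 RefSeq promoter windows of 300 bases (0.411%) and the AP-1 letters in 2565 (7.81%). A CRE (TGACGTCA, 1.79% of windows), an antioxidant element (TGACNNNGC, 12.4%) and an EGR motif (GCGTGGGCG, 0.612%) were searched too. Among Cxcl1, Cxcl2, Il1a, Tnf and Nrip1, these gave 1 match, an antioxidant element at -16 in 1 of the windows of Nrip1. The window of Tnf held none of the searched motifs. A match is a description of letters and not of binding.

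Cxcl1 encodes a ligand of the neutrophil receptor CXCR2. Its log2 signal at 2 h was 6.75, 5.74 and 5.47 with e6 and 7.76, 8.24 and 8.42 with e7. The 4 h arrays read 7.38, 6.93 and 6.9 with e6 and 8.88, 8.53 and 9.23 with e7. Every e7 array lay above every e6 array of its time. The average difference was 1.98 ± 0.41 (log2, SE, 3 against 3 arrays at each time), a 3.95-fold rise with an adjusted p of 0.0139 by limma. It was 2.16 ± 0.58 at 2 h (adjusted p = 0.022) and 1.81 ± 0.58 at 4 h (adjusted p = 0.118). Mock arrays read 6.05, 5.82 and 5.96 at 2 h and 6.01, 5.49 and 6.05 at 4 h, within the e6 range at 2 h and below it at 4 h. The averaged call was lost without e6 array 3 at 2 h and in the fit on 12 arrays, and was kept under the other 21 of 23 alternatives.

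Cxcl2, which encodes another CXCR2 ligand, stood at 10.62, 10.66 and 10.15 with e6 at 2 h and at 12.05, 11.77 and 12.05 with e7. At 4 h it was 11.71, 10.9 and 11.1 with e6 and 12.79, 12.34 and 12.73 with e7. The doses were separated at both times, but the average difference of 1.43 ± 0.56 did not pass the test (adjusted p = 0.187 by limma).

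Tnf encodes a central inflammatory cytokine of macrophages. At 2 h its log2 signal was 7.18, 7.7 and 7.62 with e6 and 8.92, 7.9 and 8.63 with e7. The values at 4 h were 8.25, 8.47 and 7.69 with e6 and 9.7, 9.12 and 9.88 with e7. The e7 arrays again exceeded all e6 arrays, and the average rise was 2.31-fold (1.21 ± 0.29 log2, adjusted p = 0.0276 by limma). The call was lost in 9 of 23 alternatives, always with the same sign.

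Il1a encodes interleukin-1 alpha, a cytokine that acts when released from stressed cells. It read 9.19, 9.45 and 8.36 with e6 at 2 h and 9.7, 9.55 and 9.77 with e7. The 4 h values were 9.67, 9.61 and 9.42 with e6 and 10.79, 11.13 and 11.05 with e7. The gap between the doses was narrow at 2 h and over 1 log2 unit at 4 h. The average rise was 2.07-fold (1.05 ± 0.28 log2, adjusted p = 0.0476 by limma) and was lost in 13 of 23 alternatives. The change of the difference between the times did not pass the test (0.75 ± 0.56, adjusted p = 0.429).

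Egr1, an immediate-early transcription factor induced through MAP kinases, was 8.39, 8.75 and 8.6 with e6 and 10.41, 9.75 and 10.24 with e7 at 2 h. The 4 h signals were 9.95, 8.97 and 10.05 with e6 and 10.6, 10.3 and 10.7 with e7. Its doses did not overlap at either time, but its average difference of 1.22 ± 0.4 did not pass the test (adjusted p = 0.11 by limma).

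**Figure D2:**
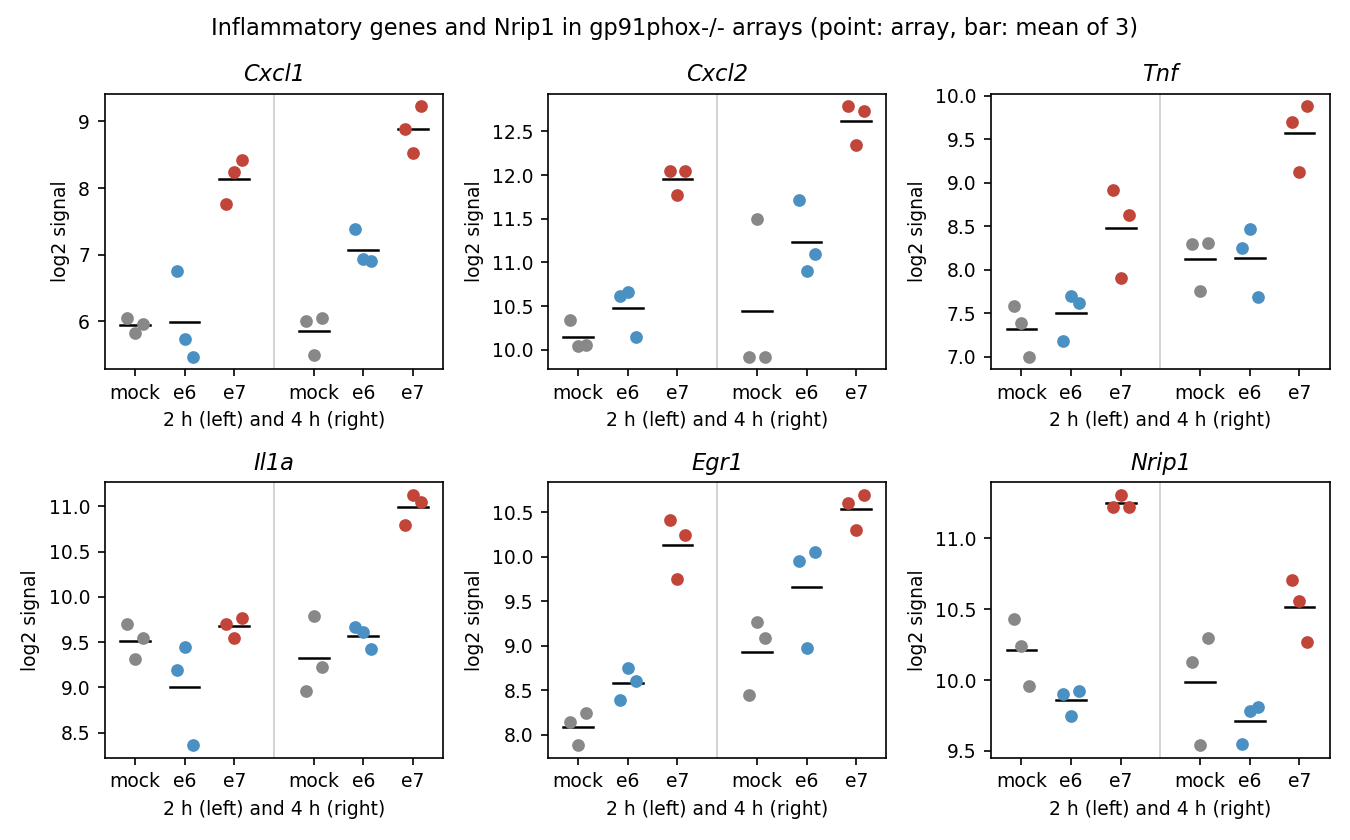
Log2 signal of Cxcl1, Cxcl2, Tnf, Il1a, Egr1 and Nrip1 on each gp91phox-/- array with mock, e6 and e7 at 2 h and 4 h; points are arrays and bars are means of 3. Every e7 array lies above every e6 array of the same time for all 6 genes, for example 7.76 to 8.42 against 5.47 to 6.75 for Cxcl1 at 2 h.

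Most other mediators did not pass. Of 21 cytokines measured, Il1a and Tnf rose on average and none fell (median difference 0.11, against 0.01 for all genes). Il1b, the secreted interleukin-1 that needs inflammasome cleavage, differed by 0.83 ± 0.65 (adjusted p = 0.584). Il6 had a signal under 50 on all 12 conidia arrays and differed by -1.71 ± 0.89 (adjusted p = 0.355). Of 26 chemokines, Cxcl1 rose and Ccl6 and Pf4 fell (median -0.1). Among all genes, 0.629% rose and 0.839% fell on average. Ccl3, which attracts monocytes, read 10.17, 10.57 and 9.95 with e6 at 4 h and 11.22, 11.59 and 11.59 with e7, without overlap, but its average difference of 0.66 ± 0.51 did not pass (adjusted p = 0.585).

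Pf4, a chemokine of platelets that macrophages also make, fell on average by 0.85 on the log2 scale (SE 0.22, adjusted p = 0.0427 by limma). It was 8.74, 9.37 and 9.39 with e6 and 7.61, 7.81 and 8.65 with e7 at 2 h. Its 4 h values were 8.52, 8.81 and 9.37 with e6 and 8.01, 8.79 and 8.22 with e7, and there the doses overlapped. The call was lost in 12 of 23 alternatives. Ccl6, a CC chemokine abundant in these cells, differed by -0.32 ± 0.08 (adjusted p = 0.0382 by limma), and by -0.03 after quantile normalization.

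Few genes of the receptors and pathways upstream were called. Calls were few among all genes too, of which 0.629% rose and 0.839% fell on average. None of 28 fungal recognition and phagocytic receptors changed on average. Clec7a, which encodes Dectin-1, differed by -0.21 ± 0.1 (adjusted p = 0.32) and Tlr2 by -0.05 ± 0.11 (adjusted p = 0.87). Of 23 genes of the NF-kB pathway, Ikbkb, the kinase that releases NF-kB from its inhibitor, rose by 0.38 ± 0.1 (adjusted p = 0.0378 by limma), lost in 11 of 23 alternatives. Of 26 immediate-early factors, 23 had a positive difference and 1 passed, with a median of 0.28, against 0.01 for all genes. That gene was Cebpb, a transcription factor of inflammatory macrophages (0.54 ± 0.14, adjusted p = 0.0402), lost in 13 of 23 alternatives. No gene passed among 14 MAP kinase phosphatases and feedback regulators, 14 suppressors of cytokine signalling, 24 interferon-responsive genes, 11 inflammasome genes or 10 NADPH oxidase genes.

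Nrip1, a nuclear receptor corepressor, was higher on every e7 array. Its log2 signal was 9.9, 9.75 and 9.92 with e6 at 2 h and 11.22, 11.31 and 11.22 with e7. Later, at 4 h, it was 9.55, 9.78 and 9.81 with e6 and 10.71, 10.56 and 10.27 with e7. The average rise was 2.14-fold (1.1 ± 0.2 log2, adjusted p = 0.00766 by limma), and the call was kept in 23 of 23 alternatives. A dimmer probe set for the gene differed by 0.38 (adjusted p = 0.52), so the probe sets did not give the same call.

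Pik3ap1, an adaptor that links receptors to phosphoinositide 3-kinase, read 7.31, 7.01 and 7.05 with e6 and 8.68, 7.97 and 8 with e7 at 2 h. The 4 h arrays had 6.79, 6.68 and 7.31 with e6 and 7.86, 8.09 and 7.88 with e7. The doses were separated at both times and the average rise was 2.08-fold (1.05 ± 0.21 log2, adjusted p = 0.0116 by limma). Pik3cg, a catalytic subunit of this kinase that acts downstream of chemoattractant receptors, was chosen after its values were seen. It read 9.26, 8.95 and 8.86 with e6 and 10.38, 10.08 and 10.09 with e7 at 2 h, and 8.97, 9.13 and 9.44 against 9.53, 9.61 and 9.26 at 4 h. Its doses were separated at 2 h and overlapped at 4 h, with an average difference of 0.72 ± 0.13 (adjusted p = 0.00791). A dimmer probe set of Pik3cg differed by 0.29 (adjusted p = 0.153).

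Other rises named by size were the phospholipid flippase Atp8a1 (1.19, adjusted p = 0.0144), the dystrophin-associated gene Dtna (1.15, adjusted p = 0.0148) and the potassium channel Kcna3 (1.14, adjusted p = 0.0362). A dimmer probe set of Dtna was called lower at 2 h (-2.01, adjusted p = 0.00884), so the direction of this gene depends on the probe set. Npc1, which exports cholesterol from lysosomes, rose by 0.5 ± 0.12 (adjusted p = 0.0309). Pfkfb3, which makes an activator of glycolysis, rose by 0.57 ± 0.15 (adjusted p = 0.0488). The rises of the erythroid factor Klf1 (1.59) and of the mismatch repair gene Pms2 (1.6) came from low signals, and shrank to 0.49 and 0.39 with signals raised to 50. The 7 erythroid markers summed to 298.6 to 427.8 with e6 and 391.2 to 631.7 with e7 at 2 h, and to 435.9 to 2408 and 511.9 to 551.6 at 4 h, and their part in the Klf1 difference was not tested.

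Among the falls, Lrpap1, a chaperone of lipoprotein receptors chosen after its values were seen, was called lower at 2 h, at 4 h and on average. It was 12.67, 12.62 and 13.07 with e6 and 12.05, 12.08 and 12.26 with e7 at 2 h. The 4 h arrays gave 12.94, 12.84 and 12.86 with e6 and 12.03, 12.53 and 12.2 with e7. All e7 arrays lay below all e6 arrays, and the average difference was -0.64 ± 0.11 (adjusted p = 0.00766 by limma). The gene's other 3 probe sets differed by -0.14 to -0.27 and were not called.

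Of 27 lysosomal and phagosomal genes, Npc1 rose (3.7%) and Ctsb and Npc2 fell (7.41%) on average, and of 21 lipid genes 1 fell. Among all genes, 0.629% rose and 0.839% fell. Ctsb, the lysosomal protease cathepsin B, was 13.83, 13.97 and 13.86 with e6 and 13.49, 13.43 and 13.53 with e7 at 2 h, and 14, 13.85 and 13.95 against 13.47, 13.59 and 13.56 at 4 h. The separation was complete and the difference small (-0.4 ± 0.08, adjusted p = 0.0144 by limma). The gene's other 3 probe sets differed by 0.19, -0.14 and -0.1 on average and none was called. After quantile normalization the difference was -0.12 (adjusted p = 0.456). The same setting reduced Npc2, a lysosomal cholesterol carrier, from -0.4 to -0.14, and Fabp5, a fatty acid binding protein of alveolar macrophages, from -0.38 to -0.09. Cstb, an inhibitor of cathepsins chosen after its values were seen, moved from -0.45 to -0.25. Txn1, the antioxidant thioredoxin, moved from -0.32 to -0.07. All of these are very bright probe sets, and their calls depend on the scaling.

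C1qb, a complement subunit made by macrophages, fell on average by 1.44 on the log2 scale (SE 0.35, adjusted p = 0.0298 by limma), with doses that overlapped at each time. Sftpb, a surfactant gene of the lung epithelium, had -1.22, or -0.28 with signals raised to 50. The sum of the 19 epithelial markers was 9573 to 13260 with e6 and 10280 to 10750 with e7 at 2 h, and 8191 to 9594 against 10140 to 10450 at 4 h. Most of that sum was Krt19, with a mean signal of 6640 over the 12 conidia arrays, against 35.6 for Sftpb. The part of epithelial RNA in the Sftpb difference was not tested.

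At 2 h the dose difference was broad. Of 12393 genes, 542 rose (4.37%) and 323 fell (2.61%), 6.98% in all, and of 22626 probe sets 1078 rose and 519 fell (7.06%). The median difference of all probe sets was 0.23. After quantile normalization, which sets that median near 0, 612 rose and 878 fell, so the balance of directions depends on the scaling. Of the called probe sets, 334 (20.9%) had both group means under 50. The count was 578 without e7 array 1, 597 without e7 array 3 and 881 without e7 array 2, and 914 to 997 without an e6 array.

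The rises at 2 h included the transcription factors Fosb, Cebpb and Nfe2l2. Fosb, an immediate-early AP-1 subunit, was 4.51, 3.96 and 5.32 with e6 and 7.88, 6.7 and 7.16 with e7 (2.65 ± 0.69, adjusted p = 0.018 by limma). Its e6 signals were low, and the difference was 1.61 with signals raised to 50. Quantile normalization together with signals raised to 50 lost the call. Cebpb was 11.27, 11.44 and 11.76 with e6 and 12.46, 12.38 and 12.29 with e7 (0.88 ± 0.2, adjusted p = 0.00672). Nfe2l2, which encodes NRF2, the main activator of antioxidant genes, was 11.8, 11.76 and 11.51 with e6 and 12.21, 12.35 and 12.37 with e7 (0.62 ± 0.13, adjusted p = 0.00399). No e7 array of these 3 genes overlapped an e6 array. Of the 21 genes of the NRF2 and antioxidant list, Nfe2l2 and the glutathione reductase Gsr (0.96, adjusted p = 0.031) rose and Gpx4, which removes lipid peroxides, fell (-0.77, adjusted p = 0.0444). The median of that list was 0.03, against 0.18 for all genes, of which 4.37% rose and 2.61% fell.

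Nlrp3, the sensor of the inflammasome, was 7.73, 7.57 and 8.21 with e6 and 9.1, 8.67 and 8.93 with e7 (1.07 ± 0.33, adjusted p = 0.0398 by limma). Pycard, the adaptor of the same complex, was 10.7, 11.21 and 11.11 with e6 and 10.23, 10.2 and 10.35 with e7 (-0.74 ± 0.23, adjusted p = 0.0455). The sensor was higher and its adaptor lower, both without overlap. Of all genes at 2 h, 21.2% had all e7 arrays above all e6 arrays and 10.3% had them below. A dimmer probe set of Pycard (mean signal 33.7 over the 51 arrays) differed by 1.01 and was not called. The other 9 genes of the inflammasome list did not pass, and 6.98% of all genes were called.

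Of 26 immediate-early factors, Cebpb and Fosb rose (7.69%, against 4.37% of all genes), 22 had a positive difference and the median was 0.4, against 0.18 for all genes. Of 14 MAP kinase phosphatases and feedback regulators, Spry1 rose (0.62, adjusted p = 0.0225). That is 7.14% of the list, of which 13 were positive with a median of 0.63. Stat3, which carries interleukin signals, rose by 0.87 (adjusted p = 0.0196), with the gene's other probe sets at 0.28 and 0.8 and not called. Vav1, an exchange factor that activates Rac for the oxidase, rose by 0.64 (adjusted p = 0.0113). Ikbkb rose by 0.51 (adjusted p = 0.0199) and was the called gene of 23 in the NF-kB list. Its share of 4.35% is near the 4.37% of all genes that rose.

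Of 21 cytokines, Ifnb1 and Il12a rose at 2 h, and of 26 chemokines Cxcl1, Cxcl14 and Ccl11 rose and Pf4 fell. Among all genes, 4.37% rose and 2.61% fell. Ifnb1, Il12a and Ccl11 were at low signal. Cxcl14 read 5.69, 5.73 and 5.26 with e6 and 6.57, 7.06 and 6.93 with e7 (1.29 ± 0.31, adjusted p = 0.00966 by limma). The tryptophan-degrading enzyme Ido1 was the called gene of 13 antimicrobial effectors. No gene was called among 28 fungal receptors, 13 enzymes of lipid mediators, 18 genes of the unfolded protein response, 20 apoptosis regulators or 13 genes of alternative activation.

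Single falls at 2 h came from several lists. Igf1, a growth factor of tissue macrophages, was 9.79, 10.49 and 10.2 with e6 and 9.26, 9.05 and 9.13 with e7 (-1.01 ± 0.25, adjusted p = 0.0128 by limma), while its other probe sets differed by -0.27 and -0.1. Oas1a, an interferon-induced antiviral enzyme, fell (-0.95, adjusted p = 0.0144), as did the mitochondrial chaperonin Hspe1 (-0.75, adjusted p = 0.0192). Of 19 glycolysis and hypoxia genes, Pfkfb3 rose (0.89, adjusted p = 0.0118) and Tpi1, a glycolytic enzyme, fell (-0.85, adjusted p = 0.0253). Among all genes, 4.37% rose and 2.61% fell.

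Transcripts of the respiratory chain and of ribosomes were lower at 2 h. These families were chosen after the values were seen. Of 81 genes of the respiratory chain and ATP synthase, 24 fell and none rose (29.6%), with a median of -0.48. Of 48 cytosolic ribosomal protein genes, 13 fell and none rose (27.1%), with a median of -0.45. Over all genes, 2.61% fell and the median was 0.18. Of 74 mitochondrial ribosomal protein genes, 9 fell (12.2%) with a median of -0.29. The respiratory chain count was 19, 18 and 12 without e6 arrays 1, 2 and 3 at 2 h, 11, 15 and 16 without e7 arrays 1, 2 and 3, and 13 in the fit on the 12 conidia arrays. The cytosolic ribosomal count was 8, 7 and 4 without the same e6 arrays, 4, 7 and 4 without the e7 arrays, and 8 on the 12 conidia arrays. The medians stayed between -0.38 and -0.52 and between -0.42 and -0.51 in these fits.

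Members at high signal carried these falls. Atp5j2, a subunit of ATP synthase, was 12.06, 12.15 and 12.44 with e6 and 10.95, 10.84 and 10.8 with e7 (-1.35 ± 0.22, adjusted p = 0.000541 by limma). Cox6c, a subunit of cytochrome c oxidase, was 12.1, 11.97 and 12.51 with e6 and 10.91, 11.11 and 11.15 with e7 (-1.14 ± 0.21, adjusted p = 0.0012). Ndufa13, a subunit of complex I, was 12.72, 12.54 and 13.07 with e6 and 11.75, 11.75 and 12 with e7 (-0.94 ± 0.18, adjusted p = 0.0021). None of the 3 overlapped between doses. Rps28, a component of the small ribosomal subunit, was 13.78, 13.71 and 13.86 against 13.21, 13.27 and 13.29 (-0.53 ± 0.12, adjusted p = 0.00747), and its 3 probe sets differed by -0.53 to -0.6.

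At 4 h none of the 3 families had a called gene, and the medians were -0.13 and -0.1 for the respiratory chain and the cytosolic ribosome, against -0.13 for all genes. On average over both times, 13 respiratory chain genes (16%) and 6 cytosolic ribosomal genes (12.5%) fell, against 0.839% of all genes. Neither family had a called gene on the 12 conidia arrays, and the ribosomal count was 0 after quantile normalization. The respiratory chain count was 0 without e6 array 3 at 2 h, 4 and 8 without e7 arrays 1 and 2 at 2 h, 5 and 8 without e6 arrays 1 and 2 at 4 h, and 5 without e7 array 3 at 4 h. The ribosomal count was 1 without e6 array 3 at 2 h, 1, 4 and 3 without e7 arrays 1, 2 and 3 at 2 h, 2, 3 and 4 without e6 arrays 1, 2 and 3 at 4 h, and 3, 2 and 2 without e7 arrays 1, 2 and 3 at 4 h. After quantile normalization, 25 respiratory chain genes and 10 cytosolic ribosomal genes fell at 2 h, with medians of -0.45 and -0.36.

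**Figure D3:**
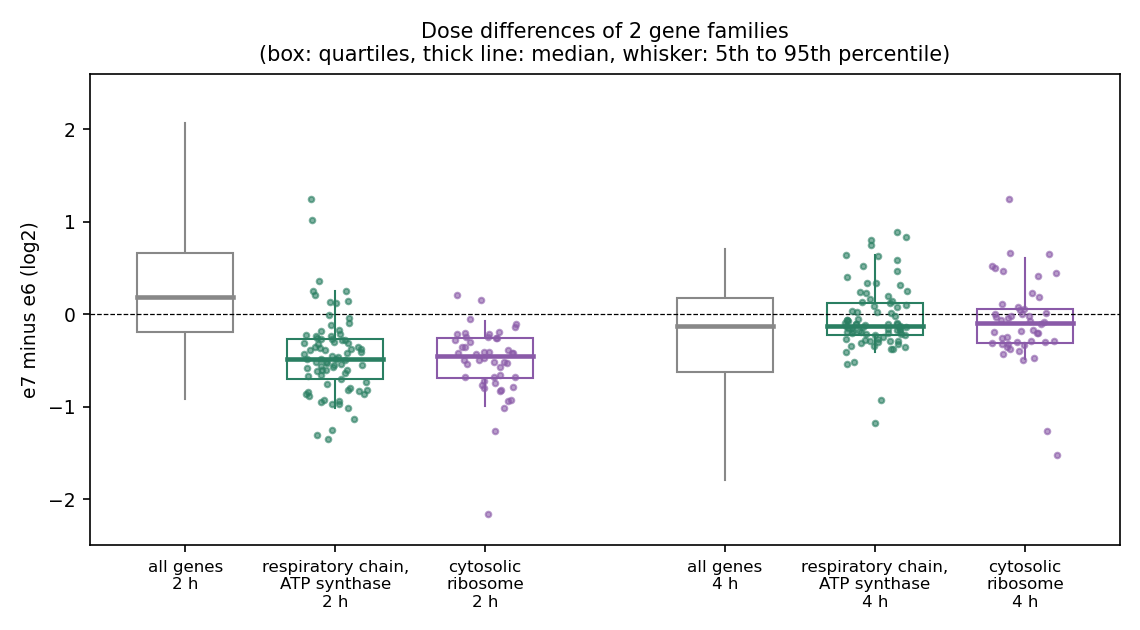
Distribution of the log2 difference e7 minus e6 in gp91phox-/- macrophages for all genes, the respiratory chain with ATP synthase, and cytosolic ribosomal proteins, at 2 h and 4 h; boxes are quartiles with the median and whiskers run from the 5th to the 95th percentile. At 2 h the family medians were -0.48 and -0.45 against 0.18 for all genes, and at 4 h -0.13 and -0.1 against -0.13.

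Many of the largest rises and falls at 2 h were of genes at low signal in 1 of the groups. Sncg rose by 5.41, Arap3 by 4.66 and Ptafr by 4.35, or by 0.48, 1.24 and 0.35 with signals raised to 50. Cd8a rose by 3.86 and Cd4 by 3.63, or by 1.04 and 0.94 with signals raised to 50. The sum of the 17 T and NK cell markers was 4077 to 7054 with e6 and 4022 to 4765 with e7 at 2 h. Most of that sum was Cd2, with a mean signal of 4010 over the 12 conidia arrays, against 237 for Zap70, the next marker. The sum therefore says little about the other T cell genes. Lat, a scaffold below the T cell receptor, moved the other way, from 6.23, 7.58 and 7.16 with e6 to 4.28, 3.81 and 3.72 with e7 (-3.05 ± 0.36, adjusted p = 3.18e-06 by limma). Its difference was -1.35 with signals raised to 50. S100a4, a calcium-binding protein of migrating cells, was 7.66, 8.21 and 7.31 with e6 and 3.54, 5.7 and 5.74 with e7 (-2.74, or -2.04 with signals raised to 50). C1qc fell by 3.83, or by 0.64 with signals raised to 50.

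At 4 h fewer genes passed. Of 12393 genes 38 rose (0.307%) and 70 fell (0.565%), 0.871% in all, and of 22626 probe sets 75 rose and 128 fell (0.897%). The median of all probe sets was -0.14. After quantile normalization 315 rose and 157 fell, so the balance of directions again depends on the scaling. The count was 35 without e7 array 3, 40 without e7 array 2, 62 without e6 array 1, 78 without e6 array 3 and 230 without e7 array 1, and 5 in the fit on 12 arrays. With the 3'/5' ratio as a covariate it was 57.

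Of the gene lists, glycolysis, cell cycle and lysosome held the called genes. Ldha, lactate dehydrogenase, was 12.16, 12.52 and 12.29 with e6 and 12.87, 13.05 and 13.15 with e7 (0.7 ± 0.17, adjusted p = 0.0282 by limma). Mock arrays read 13.13, 13.11 and 12.27. The e7 arrays were therefore within or near the mock range and the e6 arrays near its lower end.

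Mcm5, a subunit of the replicative helicase, was 7.32, 6.94 and 7.31 with e6 and 8.43, 8.6 and 8.94 with e7 (1.46 ± 0.31, adjusted p = 0.0173 by limma), and 8.01, 8.15 and 7.09 with mock. Aurka, a mitotic kinase, was 6.43, 7.17 and 6.96 with e6 and 7.9, 7.7 and 8.17 with e7 (1.07 ± 0.24, adjusted p = 0.0241), and 7.62, 7.88 and 7.49 with mock. These were the called genes of 29 in the cell cycle list, of which 24 had a positive difference and the median was 0.28, against -0.13 for all genes, of which 0.307% rose. Cdca7, a cell cycle gene at lower signal, rose by 2.02 (adjusted p = 0.0207) and Mcam, an adhesion molecule, by 2.13 (adjusted p = 0.00681).

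Npc2 was the called lysosomal gene of 27 at 4 h. It was 13.96, 13.85 and 13.93 with e6 and 13.49, 13.19 and 13.31 with e7 (-0.58 ± 0.13, adjusted p = 0.021 by limma; adjusted p = 0.154 after quantile normalization). Wdr1, which promotes actin disassembly and was chosen after its values were seen, was 10.34, 10.26 and 10.39 with e6 and 10.91, 11 and 10.98 with e7 (0.63 ± 0.14, adjusted p = 0.0188). Jak2, a cytokine receptor kinase chosen in the same way, was 10.11, 9.87 and 10.23 with e6 and 9.4, 9.5 and 9.39 with e7 (-0.64 ± 0.14, adjusted p = 0.0188), while its other probe set differed by -0.06. The doses did not overlap for any of the 3.

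No cytokine of 21 and no chemokine of 26 was called at 4 h alone, with medians of -0.63 and -0.25. Over all genes the median was -0.13, and 0.307% rose and 0.565% fell. Tnf differed by 1.43 ± 0.41 (adjusted p = 0.0773) and Il1a by 1.42 ± 0.4 (adjusted p = 0.0713). No member was called of 23 NF-kB genes (17 positive), 26 immediate-early factors (median 0.22) or 13 antimicrobial effectors (13 negative, median -0.72). Some marker lists of other cells had negative medians and no calls: 17 of 17 endothelial and stromal markers (median -0.83) and 11 of 12 monocyte and dendritic cell markers (median -1) were lower with e7. Of all genes, 60.8% were negative at 4 h. Many of these markers were dim, with a mean signal under 50 over the 12 conidia arrays for 11 of 17 and 5 of 12. The share of probe sets under 50 was itself higher with e7 at 4 h, and its part in these signs was not tested. The monocyte and dendritic cell markers summed to 980.7 to 1723 with e6 and 602.5 to 980 with e7. The neutrophil markers summed to 2768 to 3128 with e6 and 1952 to 3085 with e7. Alveolar macrophage markers summed to 161000 to 178500 and 147800 to 150800. The summed signal of lung epithelial markers was 8191 to 9594 with e6 and 10140 to 10450 with e7. Most of it was Krt19, with a mean signal of 6640 over the 12 conidia arrays, against 803 for Cdh1. All e7 arrays were above all e6 arrays for Krt19 and below them for Ager, Foxj1 and Muc1. T and NK cell markers summed to 4161 to 5022 and 4988 to 5095, which overlap, and most of this signal was Cd2. The part of these markers in the 4 h differences was not tested.

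The large differences at 4 h again included low signals. Pms2 was 3.37, 2.78 and 3.47 with e6 and 5.78, 6.78 and 6.8 with e7, a rise of 3.25 that was 0.81 with signals raised to 50 (adjusted p = 0.118 by limma). Its mock arrays read 4.81, 6.63 and 5.05. Falls at higher signal were Sema6c, a semaphorin, with 10.62, 8.66 and 9.16 against 7.35, 6.59 and 5.22 (-3.09 ± 0.59, adjusted p = 0.00681), and Uroc1, an enzyme of histidine breakdown, with 9.35, 9.19 and 10.04 against 6.92, 6.26 and 6.63 (-2.92 ± 0.57, adjusted p = 0.00794). For both genes the e7 arrays lay below all e6 arrays at 4 h. At 2 h they lay above all e6 arrays, with differences of 1.71 and 1.32 that were not called. Dimmer probe sets had positive differences at 4 h and were not called. They gave 0.63 and 0.59 for Sema6c and 0.71 for Uroc1, at mean signals of 18.7, 22.1 and 15 over the 51 arrays.

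Few genes were called at both times. Of 542 genes that rose at 2 h, 154 had a positive difference at 4 h, none was called higher and 12 were called lower. Of 323 genes that fell at 2 h, 170 were negative at 4 h, 1 was called lower (Lrpap1) and 6 were called higher. Over all genes at 4 h, 39.2% were positive and 60.8% negative, with a median of -0.13, and 0.307% were called higher and 0.565% lower. Across genes, which are not independent replicates, the differences correlated at r = -0.33. This was 0.02 over genes with a mean signal of at least 100 and -0.08 after quantile normalization with signals raised to 50. The change of the dose difference from 2 h to 4 h passed the test for 850 of 12393 genes (6.86%), with 204 positive (1.65%) and 646 negative (5.21%). By probe set it passed for 1641 (7.25%), 381 positive and 1260 negative, and after quantile normalization for 867 positive and 584 negative.

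Wasl, an activator of actin branching chosen after its values were seen, turned direction. At 2 h it was 10.51, 10.01 and 10.46 with e6 and 9.67, 9.55 and 9 with e7. At 4 h it was 8.6, 8.67 and 9.35 with e6 and 9.85, 9.96 and 10.24 with e7. The doses did not overlap at either time, and the change of the difference was 2.06 ± 0.3 (adjusted p = 0.000105 by limma), kept in 23 of 23 alternatives. The gene's other probe sets differed by 0.31, 0.14 and 1.13 at 2 h and by 0.19, -0.22 and -2.07 at 4 h, the last at a mean signal of 21.9 over the 51 arrays. None was called at either time, so the turn depends on the probe set.

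Ncbp2, a cap-binding protein chosen in the same way, was 9.9, 9.9 and 9.57 with e6 and 10.52, 10.8 and 10.83 with e7 at 2 h. Its signal at 4 h was 10.52, 10.38 and 10.71 with e6 and 9.83, 9.75 and 10.02 with e7, a change of -1.6 ± 0.22 (adjusted p = 5.45e-05 by limma). Other probe sets of Ncbp2 differed by 0.79 (adjusted p = 0.0389 by limma) and 0.2 at 2 h. At 4 h they differed by -0.14 and -0.01 and were not called, so the turn depends on the probe set. Nfe2l2 also lost its rise, with 11.9, 12.03 and 11.98 against 11.8, 11.75 and 11.8 at 4 h (change -0.8 ± 0.18, adjusted p = 0.00694). Cxcl1, Tnf and Egr1 showed no change between the times that passed, with -0.35 ± 0.82, 0.44 ± 0.57 and -0.67 ± 0.8.

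**Figure D4:**
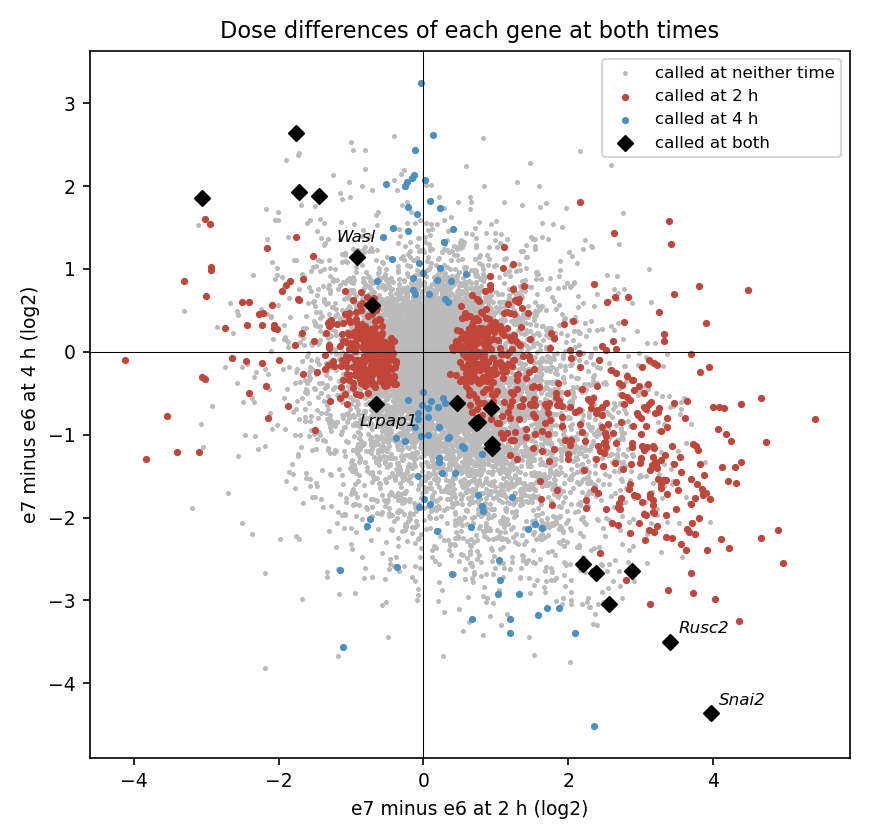
Log2 difference e7 minus e6 at 2 h (x axis) and 4 h (y axis) in gp91phox-/- macrophages, 1 point per gene, coloured by the time at which it was called; diamonds mark the 19 genes called at both times. Across genes r was -0.33, and Lrpap1 is the diamond that was lower at both times.

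Against mock, few probe sets were called except with the larger dose at 2 h. With e6, no probe set was called at 2 h by limma (865 at an unadjusted p under 0.05) and 18 at 4 h (0.0796%). With e7, 1957 were called at 2 h (8.65%) and 1 at 4 h (0.00442%). The comparisons of e6 and of e7 with mock share the mock arrays, and the comparison of the doses shares the conidia arrays with both. Cxcl1 was 2.19 above mock with e7 at 2 h (adjusted p = 0.018) and 3.03 at 4 h (adjusted p = 0.0837), and 0.04 and 1.22 above mock with e6.

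The WT arrays gave a dose comparison of the same kind. In WT no probe set was called at 2 h by limma (1588 at an unadjusted p under 0.05), 3716 at 4 h (16.4%) and 2443 on average (10.8%). The averaged dose difference itself differed between gp91phox-/- and WT for 71 of 12393 genes (0.573%), higher for 45 (0.363%) and lower for 26 (0.21%). By probe set 101 were called (0.446%), with 65 higher and 36 lower, and 86 higher and 82 lower after quantile normalization. None was called with the 3'/5' ratio as a covariate (2586 at an unadjusted p under 0.05), and 6 were called without e7 array 1 at 4 h.

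The inflammatory mediators were not among these genes. Cxcl1 rose by 1.98 ± 0.36 in WT (adjusted p = 0.00124 by limma), and the genotypes differed by 0.00078 ± 0.55. Il1a rose by 0.94 ± 0.24 in WT (adjusted p = 0.011), a difference between genotypes of 0.11 ± 0.37. Tnf differed by 0.5 ± 0.25 in WT and by 0.7 ± 0.38 between genotypes (adjusted p = 0.362). For Cxcl2 the WT rise was 1.59 ± 0.49 (adjusted p = 0.0293) and the difference between genotypes -0.16 ± 0.74. With these standard errors, a difference that misses the threshold does not show that the genotypes respond alike.

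Nrip1 showed a dose rise in gp91phox-/- that differed from WT. Its average difference was 1.1 in gp91phox-/- and -0.21 ± 0.17 in WT, 1.3 ± 0.26 apart (adjusted p = 0.0265 by limma). Pik3cg (0.72 and -0.13) and Npc1 (0.5 and -0.24) were also apart, by 0.85 ± 0.18 and 0.73 ± 0.16. Lat, Klf1 and Pms2 differed too, from low signals. With signals raised to 50, the genotypes were apart by -0.84 for Lat (adjusted p = 0.0558 by limma) and by 0.5 for Klf1 (adjusted p = 0.0814).

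Further genes were chosen after their values were seen. The transcription factor Cebpd differed by 0.55 in gp91phox-/- and -0.62 in WT, and Pld4, a nuclease of endolysosomes, by 1 and -0.9. For Rgs19, a regulator of G protein signalling, the values were 0.35 and -0.52, and for Procr, the receptor of protein C, -0.4 and 0.8. In these 4 genes the WT difference was the called one. Mmp8, a collagenase of the neutrophil list, was 0.39 in gp91phox-/- and -1.05 in WT (1.44 ± 0.31 apart, adjusted p = 0.0265 by limma). The neutrophil markers of gp91phox-/- summed to 2773 to 3919 with e6 and 1677 to 2598 with e7 at 2 h. The largest part of that sum was S100a8, with a mean signal of 1260 over the 12 conidia arrays, against 404 for Mmp8. No such sum was computed for WT, and the part of neutrophil RNA in the Mmp8 difference was not tested.

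Genes of the respiratory chain and ribosome were also called lower in WT on average, with calls at another time. Of all WT genes, 4.78% rose and 7.39% fell on average. In WT, 31 respiratory chain genes fell on average and 1 rose of 81, with a median of -0.29, and 16 of 48 cytosolic ribosomal genes fell, with a median of -0.24. The gp91phox-/- medians were -0.29 and -0.28. In gp91phox-/- the calls by time were at 2 h (24 and 13) with none at 4 h. In WT none was called at 2 h (medians -0.22 and -0.24), and at 4 h 32 respiratory chain genes fell and 7 rose and 15 cytosolic ribosomal genes fell (medians -0.33 and -0.31), against 11.8% lower and 6.73% higher among all WT genes. Whether this change between times differs by genotype was not tested. The genotypes differed for 1 respiratory chain gene, Cox7a2l (-0.42 and 0.24), and for no cytosolic ribosomal gene.

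**Figure D5:**
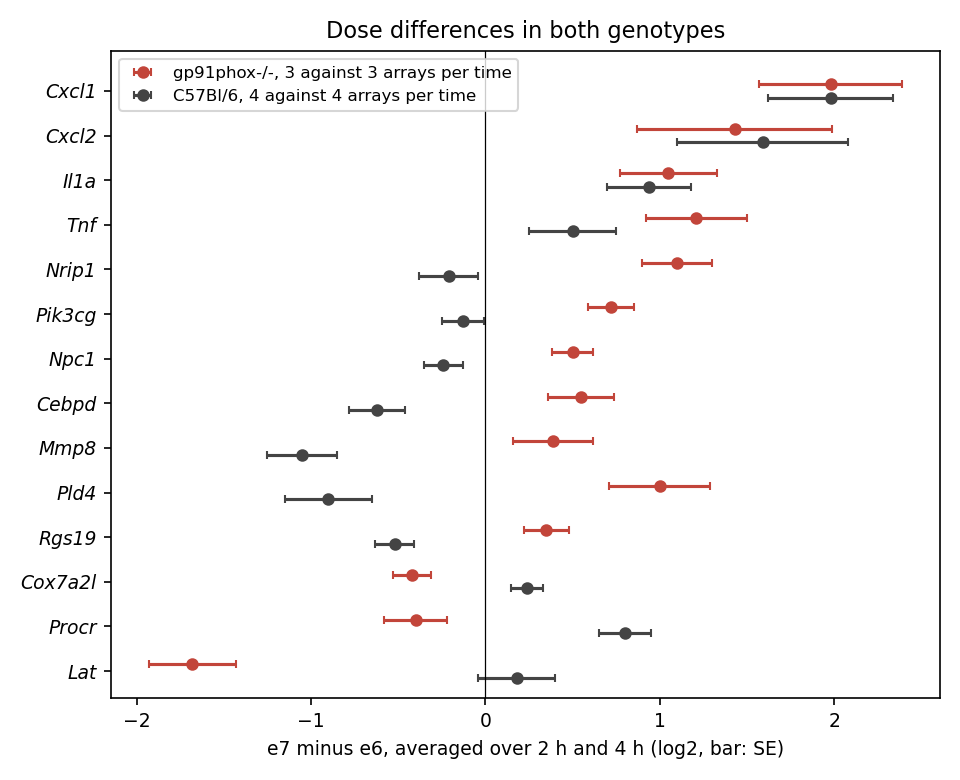
Averaged log2 dose difference e7 minus e6 with SE in gp91phox-/- (3 against 3 arrays at each time) and WT (4 against 4) for 14 genes. Cxcl1 is at 1.98 in both genotypes, and Nrip1 at 1.1 against -0.21.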

How the data were processed

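RNA of alveolar macrophages was measured on 51 Affymetrix arrays, of which 12 form the dose comparison. The authors deposited linear signal intensities per probe set. A trimmed mean (2%) computed from these values was 500.2 on every array. The submitters' processing notes name GCOS and RMA without a version or a role. Probe sets were named through the platform annotation: of 22690, 64 controls were left out, 20380 have 1 symbol, 691 several and 1555 none. A gene is the probe set with 1 symbol and the highest mean, giving 12393 genes. Log2 intensities of all arrays were fitted with limma 3.58.1 (R 4.3.3), 1 mean for each of 15 groups, and p-values were adjusted over 22626 probe sets (Benjamini-Hochberg) and called under 0.05. The design was written for such intensities and used as written. The number of arrays limits the precision. Genes named are the 10 largest called rises and falls per comparison with a signal of at least 50 in the higher group, members of 30 gene lists, and Cybb. Others are stated as chosen after their values were seen. The members and lists were chosen with earlier results of these data known. The fit was tested on simulated data. Alternatives changed normalization, low signals, arrays, weights, prior and covariates. Groups have the same replicate numbers, but same-numbered arrays did not deviate together. Columns of other samples number 0.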

Additional observations from a re-analysis of the deposited data

Results flagged for a closer look

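The dose difference changed between 2 h and 4 h, by a limma test of the difference itself, for 14 genes named here. The difference at 4 h minus that at 2 h was 2.06 ± 0.3 for Wasl (SE, adjusted p = 0.000105), -1.6 ± 0.22 for Ncbp2 (adjusted p = 5.45e-05), -1.08 ± 0.2 for the splicing factor Hnrnpf (adjusted p = 0.000951) and -0.8 ± 0.18 for Nfe2l2 (adjusted p = 0.00694). Among glycolytic genes it was 1.44 ± 0.33 for Tpi1 (adjusted p = 0.0075) and 0.82 ± 0.23 for Ldha (adjusted p = 0.0274). It was 1.67 ± 0.44 for Mcm5 (adjusted p = 0.018) and 1.13 ± 0.34 for Aurka (adjusted p = 0.0372). At low signal it was 2.75 ± 0.51 for Lat (adjusted p = 0.00119) and 3.28 ± 0.53 for Pms2 (adjusted p = 0.000298). In the families that were lower at 2 h it was 1.14 ± 0.32 for Atp5j2 (adjusted p = 0.023), 0.97 ± 0.29 for Cox6c (adjusted p = 0.0359) and 0.95 ± 0.27 for Rpl38 (adjusted p = 0.0272). For Pik3cg it was -0.87 ± 0.27 (adjusted p = 0.0411). For Hnrnpf the turn depends on the probe set: its other 3 probe sets were 0.84, 0.96 and 0.85 at 2 h and 0.55, 0.64 and -0.6 at 4 h. The same holds for Ncbp2, whose other probe sets were 0.79 and 0.2 at 2 h and -0.14 and -0.01 at 4 h. It holds for Wasl too, whose other probe sets were 0.31, 0.14 and 1.13 at 2 h and 0.19, -0.22 and -2.07 at 4 h, none called. Hnrnpf, Cox6c and Rpl38 were chosen after their values were seen. The calls of Wasl, Ncbp2, Hnrnpf, Nfe2l2 and Tpi1 were kept in 23 of 23 alternatives, while Cox6c and Pik3cg each lost theirs in 11.

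The averaged dose difference differed between gp91phox-/- and WT, again by a limma test of the difference, for 12 genes named here. The gp91phox-/- value minus the WT value was 1.3 ± 0.26 for Nrip1, 0.85 ± 0.18 for Pik3cg, 1.44 ± 0.31 for Mmp8, 1.91 ± 0.38 for Pld4, 1.18 ± 0.25 for Cebpd, 0.87 ± 0.17 for Rgs19 and 1.64 ± 0.35 for Pms2. It was -1.86 ± 0.34 for Lat, -0.66 ± 0.14 for Cox7a2l and -1.2 ± 0.24 for Procr, with an adjusted p of 0.0265 for each of these genes. For Npc1 it was 0.73 ± 0.16 (adjusted p = 0.0269) and for Klf1 1.81 ± 0.43 (adjusted p = 0.0471). All 12 calls were lost with the 3'/5' ratio as a covariate.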

How the results depend on the processing

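The number of called probe sets depended on the processing more than the sign of called differences of named genes did. Of 2654 values of named genes under the alternatives, 2022 kept their status as called or not called. A further 612 kept direction and lost the call, 20 gained it and 0 reversed. A change of sign was counted as a reversal only where the value was called in the main fit or the alternative. Uncalled differences did change sign, such as the genotype difference of Cxcl1 (0.00078, with -0.22 to 0.21 under the alternatives). Of 96 list counts, 36 moved. At 2 h the count was 1597, and 2422 with signals raised to 50, 2630 with a pseudocount of 32 and 2907 with array weights. Leaving out 1 array gave 578 to 997. At 4 h it was 203, and 472 after quantile normalization, 2626 with signals raised to 50, 1243 with a pseudocount of 32, 101 on gp91phox-/- arrays alone, 5 on the 12 conidia arrays, 938 with array weights and 57 with the 3'/5' covariate. Quantile normalization with signals raised to 50, added after seeing the data, gave 814, and leaving out 1 array gave 35 to 230. On average it was 324, and 493 after quantile normalization, 1127 with signals raised to 50, 518 with the pseudocount, 683 for a mean signal of at least 100, 1 on the 12 arrays, 936 with array weights, 741 with the covariate, and 773 with quantile normalization and signals raised to 50. Leaving out 1 array gave 43 (without e6 array 3 at 2 h) to 369.

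The change between times was called for 1641, and for 2805 with signals raised to 50, 3313 with the pseudocount, 566 for a mean of at least 100, 3454 with array weights and 1048 with the covariate. Leaving out 1 array gave 790 (without e7 array 2 at 4 h) to 1903. It was 381 positive and 1260 negative, and 867 positive and 584 negative after quantile normalization. The genotype difference was called for 101, and for 168 after quantile normalization, 424 with signals raised to 50, 250 with the pseudocount, 626 for a mean of at least 100, 691 with array weights, 289 with a trended prior, 0 with the covariate by limma (2586 at an unadjusted p under 0.05) and 283 with quantile normalization and signals raised to 50. Leaving out 1 array gave 6 (without e7 array 1 at 4 h) to 194 (without e6 array 2 at 2 h). The correlation across genes between the times, examined after seeing the data, was -0.33, and -0.23 after quantile normalization, -0.14 with signals raised to 50, 0.02 for a mean of at least 100 and -0.08 with quantile normalization and signals raised to 50. The 3'/5' ratio difference at 2 h was 0.39, and -0.06 (without e7 array 3) to 0.91 with 1 array left out. At 4 h it was -2.41 to -1.33 and on average -1.01 to -0.47. The cause of these moves was not tested.

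With the replicate number as a block the counts were 1327 at 2 h, 137 at 4 h, 246 on average, 1418 for the change between times and 90 for the genotype difference. Correlations of the deviations of same-numbered arrays were 0 to 0.043, so the numbers were not taken as pairs. Signal near background limits 20.9% of the calls at 2 h and 13.3% at 4 h, where both group means were under 50.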
